A study of Mus musculus with 4 samples.

Results

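The 10 genes described here make bile acids, return them to hepatocytes or control their synthesis, and were measured in mouse liver 1 day after treatment with the liver carcinogen diethylnitrosamine (DEN). The members were the rows named Cyp7a1, Cyp7b1, Cyp8b1, Cyp27a1, Hsd3b7, Baat, Slc27a5, Slc10a1, Nr1h4 and Nr0b2, which are 10 of the 35522 genes in each table, and all 10 passed the filter on low counts. The libraries came from livers labelled Dph1 KO (n = 2) and livers labelled Control (n = 2), all of strain C57BL/6 and all given DEN. The product of Dph1 takes part in the first step of making diphthamide, a modified residue of eEF2, which moves the ribosome along mRNA. The labels give neither the age of the mice nor the part of Dph1 that was removed, the cells it was removed from or the alleles the Control mice carry. Nor do they state that each library is its own mouse, and the p-values then take in only how these samples spread, which can be technical. Livers without DEN were not analysed here.

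Bile acids are made from cholesterol in hepatocytes. In the classic pathway CYP7A1 adds a hydroxyl group to the sterol ring as the rate-limiting step. In the alternative pathway CYP27A1 first oxidises the side chain and CYP7B1 then hydroxylates the ring. Bile acids that return to the liver bind the nuclear receptor FXR, encoded by Nr1h4. FXR induces Nr0b2, whose product SHP is a corepressor that acts on Cyp7a1 and Cyp8b1, and a gut hormone, FGF15 in mice, signals to the same end.

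The 2 enzymes named above for the alternative pathway differed in direction. Cyp7b1 rose 1.92-fold in Dph1 KO livers and Cyp27a1 fell 1.91-fold, and no other member was called. Both calls were lost when either Control library was left out. With a correction for the GC content of transcripts, described below, Cyp27a1 kept its call, Cyp7b1 did not (log2 fold change 0.59, edgeR adjusted p = 0.0554) and Hsd3b7 was called higher (edgeR adjusted p = 0.0422). A gene is called where the quasi-likelihood test of edgeR, adjusted by Benjamini-Hochberg over 13303 tested genes, gives a p under 0.05. With all libraries and no GC correction that is 2 of 10 members, 1 in each direction, where 12.3% of all tested genes were called, 4.86% higher and 7.47% lower in Dph1 KO. Cyp7a1, Cyp8b1 and Nr0b2 varied more between libraries of one genotype than between genotypes, and so, by a small margin, did Nr1h4. The counts of total reads per gene were scaled with TMM factors to CPM (reads per 1000000 reads of the library), and fold changes are Dph1 KO over Control on the log2 scale.

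The libraries held 20410978 and 21137358 gene reads in Dph1 KO and 19474596 and 20355790 in Control. Dph1 itself stood at 17.8 and 31.5 CPM in Dph1 KO, against 70.3 and 68.3 CPM in Control (log2 fold change -1.49, SE 0.26, edgeR adjusted p = 0.0107). Hepatocyte markers (Alb, Ttr, Cps1, Hnf4a, Tat and Serpina1c) summed to 67664 and 58418 TPM (a share of transcripts that allows for exon length) in Dph1 KO and 49209 and 51844 TPM in Control, and 0 of the 6 were called by edgeR or by DESeq2, with 0 at an unadjusted p under 0.05. Bile duct markers summed to 18.7 to 25.0 TPM in Dph1 KO and 16.5 to 30.4 TPM in Control. Kupffer cell markers summed to 103 to 135 TPM in Dph1 KO and 85.4 to 86.6 TPM in Control, and sinusoidal endothelial markers to 77.4 to 93.6 TPM in Dph1 KO and 61.3 to 74.1 TPM in Control. Of these, 0 of 5 tested bile duct, 0 of 6 Kupffer cell and 0 of 5 endothelial genes were called by edgeR or by DESeq2, with 2, 0 and 0 at an unadjusted p under 0.05. Stellate cell markers summed to 63.0 to 92.4 TPM in Dph1 KO and 57.8 to 61.4 TPM in Control, where Des and Col1a1 of 5 were called lower, and leukocyte markers to 5.33 to 6.74 TPM in Dph1 KO and 5.53 to 5.59 TPM in Control, where Cd79a of 2 tested was called lower. These 3 calls were lost with the GC and length offset described next. TPM carries no TMM factor. Over all tested genes the median log2 fold change was 0.23 to 0.32 on log2 TPM with a pseudocount, against 0.04 with TMM. With TMM the list medians were 0.03 for hepatocyte, 0.16 for Kupffer cell, -0.03 for endothelial and -0.16 for stellate cell markers. They were -0.51 for bile duct and -0.36 for leukocyte markers. Fewer cells of a type and less RNA per cell cannot be told apart in such bulk samples, and the part of these markers in the results was not tested.

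Fold changes over all genes ran with the GC content of the transcripts. Across 12517 tested genes with a known GC content, the Spearman correlation between GC content and log2 fold change was -0.62, a description across genes of the same 4 libraries. In 5 equal classes from low to high GC content, the median log2 fold change was 0.48 in the lowest class and -0.56 in the highest. The fold changes of the members and of the called pathway genes are therefore given also with a smooth GC and length trend of each library entered as an offset, and called GC-corrected. With that offset 10.7% of 12517 genes were called, 4.99% higher and 5.69% lower.

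**Figure D1:**
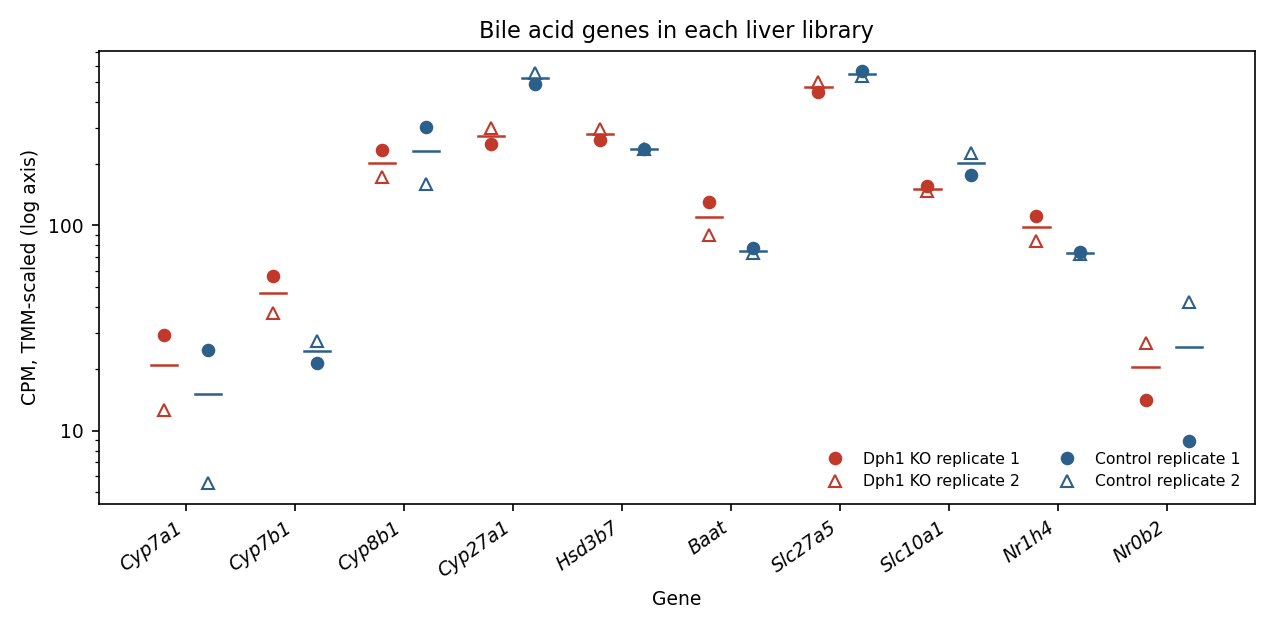
CPM (TMM-scaled, log axis) of the 10 bile acid genes in each library, with Dph1 KO left of Control in every pair. Circles are replicate 1, triangles replicate 2, and bars the genotype mean. The 2 Cyp27a1 values of Dph1 KO, 250 and 298 CPM, lie below both Control values, and the Control values of Nr0b2, 8.92 and 42.2 CPM, lie on either side of both Dph1 KO values.

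Upstream sequences are shown for 3 members: Cyp27a1, the member that fell, and the pair Cyp8b1 and Nr0b2, whose levels ran opposite to each other within each genotype. Cyp7a1, Baat and Nr1h4 also ran opposite to Nr0b2 in this way, while Cyp27a1 and Hsd3b7 ran with it in both genotypes. Each is the 250 bases before the transcript start in RefSeq (GRCm38.p6), read 5′ to 3′ on the strand of the gene. Cyp27a1 is from chr1:74713285-74713534, plus strand, Nr0b2 from chr4:133553126-133553375, plus strand, and Cyp8b1 from chr9:121916306-121916555, minus strand. Capitals mark a match to any of 4 motifs searched on both strands.
Cyp27a1: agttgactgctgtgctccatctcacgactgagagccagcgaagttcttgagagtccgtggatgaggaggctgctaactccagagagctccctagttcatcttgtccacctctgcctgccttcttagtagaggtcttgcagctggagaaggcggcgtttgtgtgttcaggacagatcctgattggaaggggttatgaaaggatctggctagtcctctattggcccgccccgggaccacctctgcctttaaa
Nr0b2: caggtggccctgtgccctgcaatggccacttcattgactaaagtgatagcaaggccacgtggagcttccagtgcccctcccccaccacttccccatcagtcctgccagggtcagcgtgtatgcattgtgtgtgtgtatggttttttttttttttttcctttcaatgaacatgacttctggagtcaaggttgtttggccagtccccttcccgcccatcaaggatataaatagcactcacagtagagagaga
Cyp8b1: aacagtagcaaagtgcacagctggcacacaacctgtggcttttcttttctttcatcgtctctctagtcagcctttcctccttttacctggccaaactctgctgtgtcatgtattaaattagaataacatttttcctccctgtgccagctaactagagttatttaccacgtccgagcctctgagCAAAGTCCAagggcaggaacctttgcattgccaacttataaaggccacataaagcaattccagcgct
The motifs were the inverted repeat that FXR binds with RXR, AGGTCA (the core site of nuclear receptors, which the inverted repeat and the next motif also contain), CAAGGTCA (the extended core site of LRH-1) and CAAAGTCCA (an HNF4A-type site). RefSeq windows were matched for 6 of the 10 members, in 7 windows since Slc10a1 has 2. Windows for Cyp7a1, Cyp7b1, Baat and Slc27a5 were not used here. The Cyp8b1 window held CAAAGTCCA from 67 bases before the start, a motif in 0.384% of 32851 windows. The core site stood in the Nr1h4 window, on the opposite strand from 214 bases before the start, and in 1 Slc10a1 window from 87 bases before it, and 14.0% of all windows hold it. The Nr1h4 window, chr10:89506659-89506908, precedes a transcript start inside the gene as counted, which spans 89454234 to 89533622 on the minus strand. The extended core site is in 1.33% of all windows and the inverted repeat in 0.00609%, and neither was in a member's window. These matches describe letters in these windows and not binding.

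Cyp7a1 encodes the rate-limiting cholesterol 7-alpha-hydroxylase of the classic pathway. It had 29.4 and 12.6 CPM in Dph1 KO replicates 1 and 2, against 24.6 and 5.56 CPM in Control replicates 1 and 2. The genotypes overlapped, with a low library in each. The log2 fold change was 0.48 (SE 0.54, 95% interval -0.72 to 1.67), and the gene was not called (edgeR adjusted p = 0.548). This interval holds changes of more than 2-fold upward, so the test could not place the genotype difference. Leaving out 1 library gave -0.25 to 1.91, and the sign turned when Dph1 KO replicate 1 or Control replicate 2 was the one left out. Lacking Control replicate 1, the fit called it higher (edgeR adjusted p = 0.0001). The GC-corrected value was -0.11.

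Cyp8b1, the sterol 12-alpha-hydroxylase that directs synthesis to cholic acid, followed Cyp7a1 in kind. It had 233 and 172 CPM in Dph1 KO, against 300 and 159 CPM in Control. Replicate 1 was the higher library in both genotypes, and the Dph1 KO values lay between the Control values. The log2 fold change was -0.18 (SE 0.31, 95% interval -0.87 to 0.51; edgeR adjusted p = 0.708), and the GC-corrected value 0.22.

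Cyp27a1, the mitochondrial sterol 27-hydroxylase, had 250 and 298 CPM in Dph1 KO, against 490 and 556 CPM in Control. Both Dph1 KO libraries stood below both Control libraries. The gene (gene ID 104086; GRCm38 chromosome 1, 74713574 to 74737890, plus strand) had a log2 fold change of -0.93 (SE 0.25, 95% interval -1.49 to -0.37; edgeR adjusted p = 0.0408). It kept its call after GC correction, at -0.64 (SE 0.16; edgeR adjusted p = 0.0352). The call was lost without Control replicate 1 (edgeR adjusted p = 0.170) and without Control replicate 2 (edgeR adjusted p = 0.310), while the value stayed between -1.05 and -0.79 with any 1 library left out.

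Cyp7b1, the oxysterol 7-alpha-hydroxylase that acts after CYP27A1, had 56.6 and 37.3 CPM in Dph1 KO, against 21.4 and 27.5 CPM in Control. Both Dph1 KO libraries stood above both Control libraries, and replicate 1 was the higher of the Dph1 KO pair. The gene (gene ID 13123; GRCm38 chromosome 3, 18071950 to 18243338, minus strand) had a log2 fold change of 0.94 (SE 0.24, 95% interval 0.41 to 1.48; edgeR adjusted p = 0.0357). After GC correction the value was 0.59 and just missed the threshold (edgeR adjusted p = 0.0554). The call was also lost without Control replicate 1 (edgeR adjusted p = 0.221) and without Control replicate 2 (edgeR adjusted p = 0.0573), and leaving out 1 library gave 0.64 to 1.23.

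Cyp7b1 is expressed more in male than in female mouse liver, and the labels give no sex. Xist, the transcript of the inactive X chromosome, had 1 and 0 reads in Dph1 KO and 4 and 2 reads in Control, and the Y-linked gene Ddx3y had 581 and 332 reads in Dph1 KO and 216 and 270 reads in Control, so all 4 libraries had the male pattern in these genes, which were chosen after their values were seen.

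Hsd3b7 encodes the 3-beta-hydroxysteroid dehydrogenase that acts next in both pathways. It had 262 and 297 CPM in Dph1 KO, against 235 and 236 CPM in Control. Both Dph1 KO libraries were higher, by a margin smaller than that between the Dph1 KO libraries. It was not called (log2 fold change 0.25, SE 0.23, 95% interval -0.27 to 0.76; edgeR adjusted p = 0.468). After GC correction it was called higher, at 0.57 (SE 0.15; edgeR adjusted p = 0.0422). Its GC content, 53.9%, lay in the fourth of the 5 classes, whose median log2 fold change was -0.24.

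Neither conjugation enzyme was called. Slc27a5, the bile acyl-CoA synthetase that activates bile acids, had 445 and 502 CPM in Dph1 KO, against 564 and 535 CPM in Control. The Dph1 KO libraries stood below the Control libraries, and the gene was not called (log2 fold change -0.21, 95% interval -0.77 to 0.34; edgeR adjusted p = 0.565), with a GC-corrected value of 0.016. Baat, which joins the activated bile acids to taurine or glycine, had 131 and 89.6 CPM in Dph1 KO, against 77.8 and 73.0 CPM in Control. Both Dph1 KO libraries were above both Control libraries, with a log2 fold change of 0.55 (SE 0.23, 95% interval 0.03 to 1.06) that was not called over all genes (unadjusted p = 0.0405 and adjusted p = 0.128, edgeR). The GC-corrected value was 0.32. Without Dph1 KO replicate 2 Baat was called (edgeR adjusted p = 0.00427), in a fit that called 39.3% of all genes.

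Slc10a1 encodes NTCP, the sodium-dependent transporter that takes conjugated bile acids up from the blood. It had 155 and 147 CPM in Dph1 KO, against 176 and 226 CPM in Control. Both Dph1 KO libraries were below both Control libraries, and replicate 2 was the higher of the Control pair. The log2 fold change was -0.41 (SE 0.23, 95% interval -0.92 to 0.11; edgeR adjusted p = 0.235), and the GC-corrected value was -0.49 (edgeR adjusted p = 0.0801). On the TPM scale the same gene had 159 and 121 TPM in Dph1 KO, against 129 and 152 TPM in Control, with overlapping genotypes. TPM carries no TMM factor, and its median log2 fold change over all tested genes was higher, as given above for the cell markers.

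Nr1h4, the gene of the bile acid receptor FXR, had 112 and 83.9 CPM in Dph1 KO, against 74.3 and 72.8 CPM in Control. Both Dph1 KO libraries were higher than both Control libraries. It was not called (log2 fold change 0.41, SE 0.22, 95% interval -0.07 to 0.90; edgeR adjusted p = 0.205), and its GC-corrected value was 0.28. Of its reads, 27.0% to 35.1% lay in introns, against 0% to 14.6% for the other 9 members. Without Dph1 KO replicate 2 it was called higher (edgeR adjusted p = 0.0146).

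Nr0b2, the gene of the corepressor SHP and a target of FXR, had 14.1 and 26.7 CPM in Dph1 KO replicates 1 and 2, against 8.92 and 42.2 CPM in Control replicates 1 and 2. The Control libraries held both the highest and the lowest value. The log2 fold change was -0.33 (SE 0.53, 95% interval -1.50 to 0.85; edgeR adjusted p = 0.687). A single Control library set its sign: it was called lower without Control replicate 1 (-1.06, edgeR adjusted p = 0.0355) and called higher without Control replicate 2 (1.19, edgeR adjusted p = 0.0404). The GC-corrected value was 0.30.

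**Figure D2:**
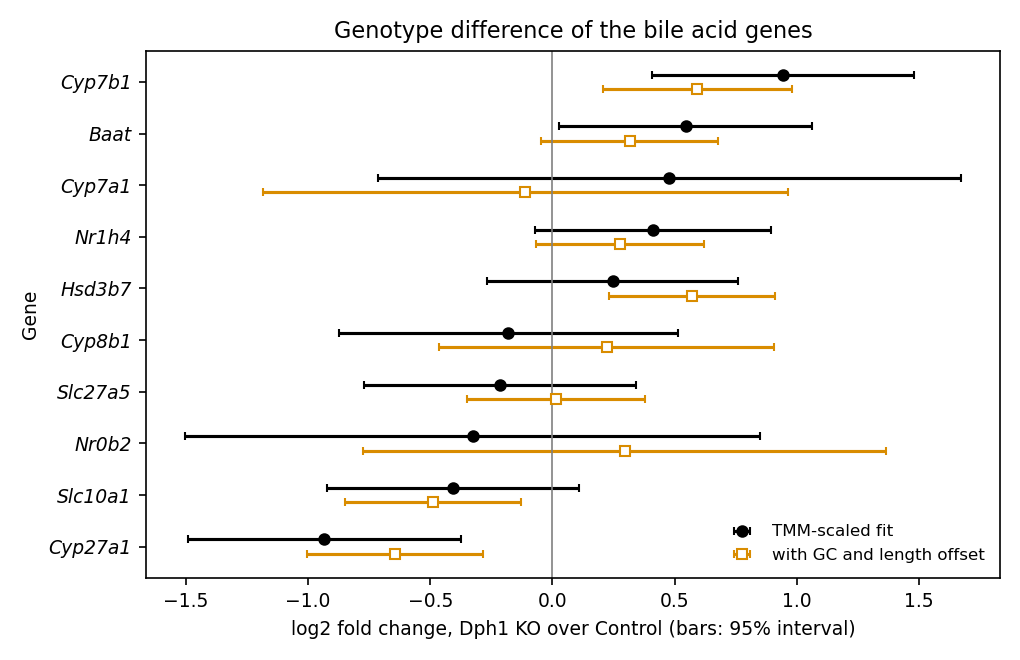
Log2 fold change (Dph1 KO over Control) of the 10 genes with 95% intervals from the fit with TMM scaling (black circles) and with the GC and length offset (open orange squares). Cyp7b1 lies at 0.94 and 0.59 and Cyp27a1 at -0.93 and -0.64 in these fits, while the intervals of Cyp7a1, Cyp8b1 and Nr0b2 are the widest and hold 0 in both.

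In total 4 members had both Dph1 KO libraries above both Control libraries (Cyp7b1, Hsd3b7, Baat and Nr1h4), 3 had both below (Cyp27a1, Slc27a5 and Slc10a1) and 3 overlapped. This gives 7 of 10 on one side, where 67.4% of all tested genes were, 34.9% above and 32.5% below. With 2 against 2 libraries the smallest 2-sided exact permutation p is 0.333, and the edgeR calls use a spread estimated over many genes. The median log2 fold change of the members was 0.03, beside 0.04 over all tested genes. After GC correction these medians were 0.25 and 0.0056. With a Dph1 KO library left out, the fits called 9.74% (replicate 1) and 39.3% (replicate 2) of tested genes. With a Control library left out they called 5.43% (replicate 1) and 3.82% (replicate 2). Scaling to the library total alone called 25.7%. Baat and Nr1h4 were called higher with that scaling and in the fit lacking Dph1 KO replicate 2.

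Of the 10 members, Nr0b2, Cyp7a1 and Cyp8b1 had the largest differences between the Control replicates. In log2 CPM, computed with 2 as the prior count, Nr0b2 was lower in replicate 1 than in replicate 2 by 1.89-fold in Dph1 KO and 4.69-fold in Control. Cyp7a1 ran the other way, higher in replicate 1 by 2.33-fold in Dph1 KO and 4.36-fold in Control. Cyp8b1 was likewise higher in replicate 1, by 1.36-fold in Dph1 KO and 1.89-fold in Control. Replicate numbers only name the libraries and pair nothing between genotypes, so this says that in each genotype the library with less Nr0b2 had more Cyp7a1 and more Cyp8b1. That library also had more Baat, by 1.46-fold in Dph1 KO and 1.07-fold in Control. It had more Nr1h4 as well, by 1.33-fold in Dph1 KO and 1.02-fold in Control. Cyp27a1 and Hsd3b7 ran with Nr0b2 instead, lower in that library by 1.19-fold and 1.13-fold in Dph1 KO. In Control they were lower by 1.13-fold and 1.004-fold. Cyp7b1, Slc27a5 and Slc10a1 ran opposite to Nr0b2 in 1 genotype only. With 2 libraries in each genotype, a gene can only run with or against Nr0b2. The share of all tested genes that ran opposite to Nr0b2 in both genotypes was not counted.

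The Control difference of Nr0b2 ranked 24 by size among 13303 tested genes and that of Cyp7a1 ranked 31, and 3.29% of genes had a larger one than Cyp8b1. In Dph1 KO the differences ranked 725 and 306, and 34.0% of genes had a larger one than Cyp8b1. The median difference over all tested genes was 0.31 in Dph1 KO and 0.20 in Control, on the log2 scale. With the GC trends removed, the replicate 1 minus replicate 2 differences of Nr0b2 were -0.37 in Dph1 KO and -2.15 in Control, and those of Cyp7a1 0.75 and 2.07, on the same scale. The ratio of Cyp7a1 to Nr0b2 in TPM was 0.601 and 0.125 in Dph1 KO, against 0.743 and 0.0364 in Control. With 4 libraries no correlation was computed.

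**Figure D3:**
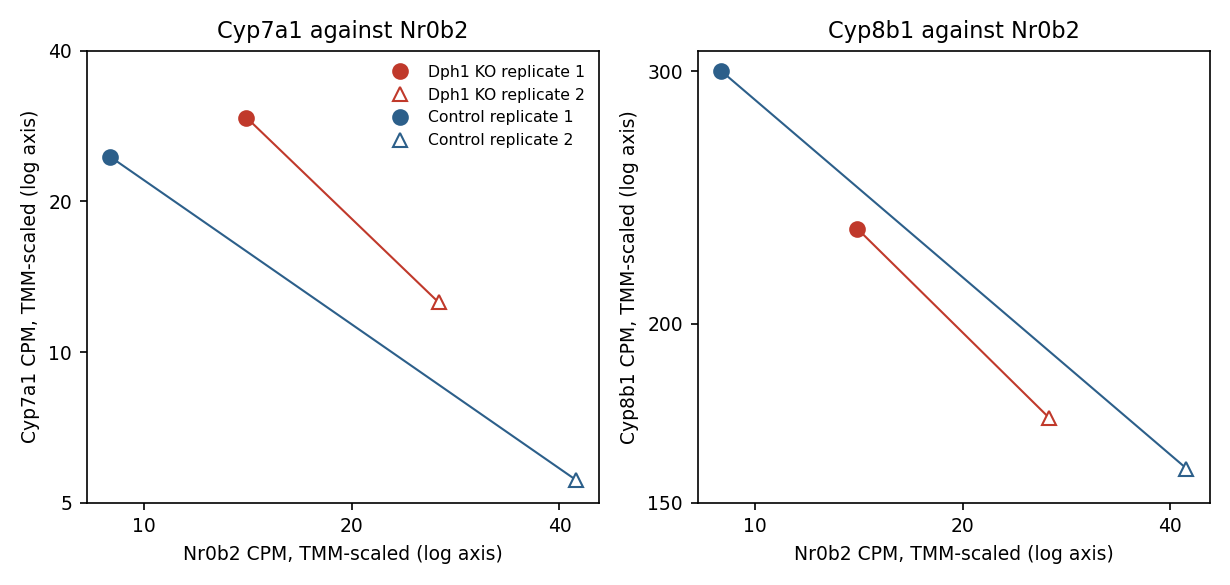
CPM (TMM-scaled, both axes log) of Cyp7a1 (left) and Cyp8b1 (right) against Nr0b2 in each library, with a line joining the 2 libraries of a genotype, Dph1 KO in red and Control in blue. In both genotypes the library with less Nr0b2 has more Cyp7a1 and Cyp8b1. It also has more Baat and Nr1h4 and less Cyp27a1 and Hsd3b7, which are not drawn. The Control libraries, at 8.92 and 42.2 CPM of Nr0b2, are further apart than the Dph1 KO libraries, at 14.1 and 26.7 CPM.

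Levels of different genes can be set side by side only per length, here in TPM as deposited. In Dph1 KO the order by mean TPM was Slc27a5, Hsd3b7, Cyp27a1, Cyp8b1, Slc10a1, Baat, Nr1h4, Cyp7b1, Nr0b2 and Cyp7a1, with means of 399 TPM at the top and 9.85 TPM at the bottom. In Control it was Cyp27a1, Slc27a5, Hsd3b7, Cyp8b1, Slc10a1, Baat, Nr0b2, Nr1h4, Cyp7b1 and Cyp7a1, with means of 406 and 5.37 TPM at the ends. Cyp27a1 averaged 265 ± 12.8 TPM in Dph1 KO and 406 ± 13.0 TPM in Control (SD, n = 2 each), behind Slc27a5 and Hsd3b7 in one order and at the top of the other. Cyp7a1 was lowest in both genotypes, below the range of its neighbour. In Dph1 KO the ranges of Cyp27a1 and Cyp8b1, of Cyp8b1 and Slc10a1, of Slc10a1 and Baat, of Nr1h4 and Cyp7b1, and of Cyp7b1 and Nr0b2 overlapped. In Control those of Hsd3b7 and Cyp8b1, of Cyp8b1 and Slc10a1, of Baat and Nr0b2, and of Nr0b2 and Nr1h4 did, and no other neighbours overlapped.

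The patterns of Cyp7a1 and Nr0b2 were also set beside all tested protein-coding genes with a mean of at least 1 CPM, by the root mean square difference of log2 CPM centred on the gene mean over 4 libraries. Nearest to Cyp7a1 among 11013 genes were Ap1s3 (0.16), Pdp1 (0.24) and Zfp770 (0.41). Nearest to Nr0b2 were Slc22a28 (0.32), Crybb3 (0.37) and G6pc (0.38). G6pc, the glucose-6-phosphatase gene, had 46.2 and 174 CPM in Dph1 KO, against 44.5 and 161 CPM in Control. Its low libraries were those low in Nr0b2, which follows from choosing it by nearness to Nr0b2 in these same libraries. Ap1s3, Pdp1, Slc22a28 and Crybb3 stood below 3 CPM in every library.

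The other genes of the pathway were read in 3 lists of 47 genes in all, of which 41 were tested. Of these, 7 rose and 2 fell, and 32 were not called, a share to be set beside the 12.3% of all tested genes. Their median log2 fold change was 0.42. After GC correction 9 were higher and 2 lower, 8 of the 9 genes called before were called again in the same direction, and the median was 0.26. Among all 12517 genes with a known GC content, 780 kept their call in this way. Before the correction 1640 of all 13303 tested genes were called. Lacking Control replicate 1, the fit called 2 of the 41, Cyp39a1 and Dbp. Lacking Control replicate 2, it called Cyp39a1, Atp8b1, Dbp and Nfil3, and also Slco1a1, which was not called with all libraries. Lacking Dph1 KO replicate 2, the fit called more of the 41 than with all libraries, and also a larger share of all tested genes.

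Among 14 tested synthesis, side chain and conjugation enzymes, 2 rose and 1 fell. Cyp39a1, which hydroxylates 24-hydroxycholesterol at the ring position that CYP7A1 and CYP7B1 use on their substrates, had 3.09 and 3.38 CPM in Dph1 KO, against 9.90 and 13.3 CPM in Control. The genotypes stood well apart, and its log2 fold change of -1.84 (SE 0.25; edgeR adjusted p = 0.00290) was -2.19 after GC correction and was called with any 1 library left out. Cyp3a11, a broad-substrate P450 that also hydroxylates bile acids, rose, with 1492 and 1090 CPM in Dph1 KO, against 559 and 655 CPM in Control (log2 fold change 1.09, edgeR adjusted p = 0.0383), a call kept after GC correction, at 0.70, and lost when either Control library was left out. Acnat2, an acyltransferase gene of the Baat family, rose with a log2 fold change of 0.81 (edgeR adjusted p = 0.0477) and the same value after GC correction, and this call was lost with any 1 library left out other than Dph1 KO replicate 2.

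Among 12 tested transporters of bile acids and bile lipids, 4 rose and 0 fell, with 6 called by DESeq2, which called 15.1% of all tested genes, and 7 at an unadjusted p under 0.05, as were 4549 of all 13303 tested genes. The uptake transporter gene Slco1b2 had 262 and 170 CPM in Dph1 KO, against 97.7 and 103 CPM in Control (log2 fold change 1.11, edgeR adjusted p = 0.0264). The canalicular export pump gene Abcc2 had 611 and 415 CPM in Dph1 KO, against 222 and 256 CPM in Control (log2 fold change 1.10, edgeR adjusted p = 0.0331). Dph1 KO was higher in both libraries for each, and both calls were kept after GC correction, at 0.58 and 0.67, but were lost when either Control library was left out. Atp8b1, a phospholipid flippase gene of the canalicular membrane, rose by 1.07 (edgeR adjusted p = 0.0162), a call kept after GC correction, at 0.66, and lost without Control replicate 1. Slco1a4, an uptake transporter gene, rose by 0.78 (edgeR adjusted p = 0.0353), a call lost after GC correction, at 0.28, and when either Control library was left out.

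Among 15 tested receptors, regulators and hormone signalling genes, 1 rose and 1 fell. Both are clock output genes that act at shared promoter elements. Dbp, an activator, had 26.8 and 63.9 CPM in Dph1 KO, against 174 and 210 CPM in Control (log2 fold change -2.08, SE 0.35; edgeR adjusted p = 0.00884). Nfil3, a repressor, had 21.4 and 22.2 CPM in Dph1 KO, against 8.0 and 11.1 CPM in Control (log2 fold change 1.19, SE 0.22; edgeR adjusted p = 0.0129). Both calls were kept after GC correction, at -1.40 for Dbp and 1.56 for Nfil3, and that of Nfil3 was lost without Control replicate 1. The gut hormone gene Fgf15 had 0 reads in all 4 libraries, where a count of 0 allows up to 3 reads per library.

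**Figure D4:**
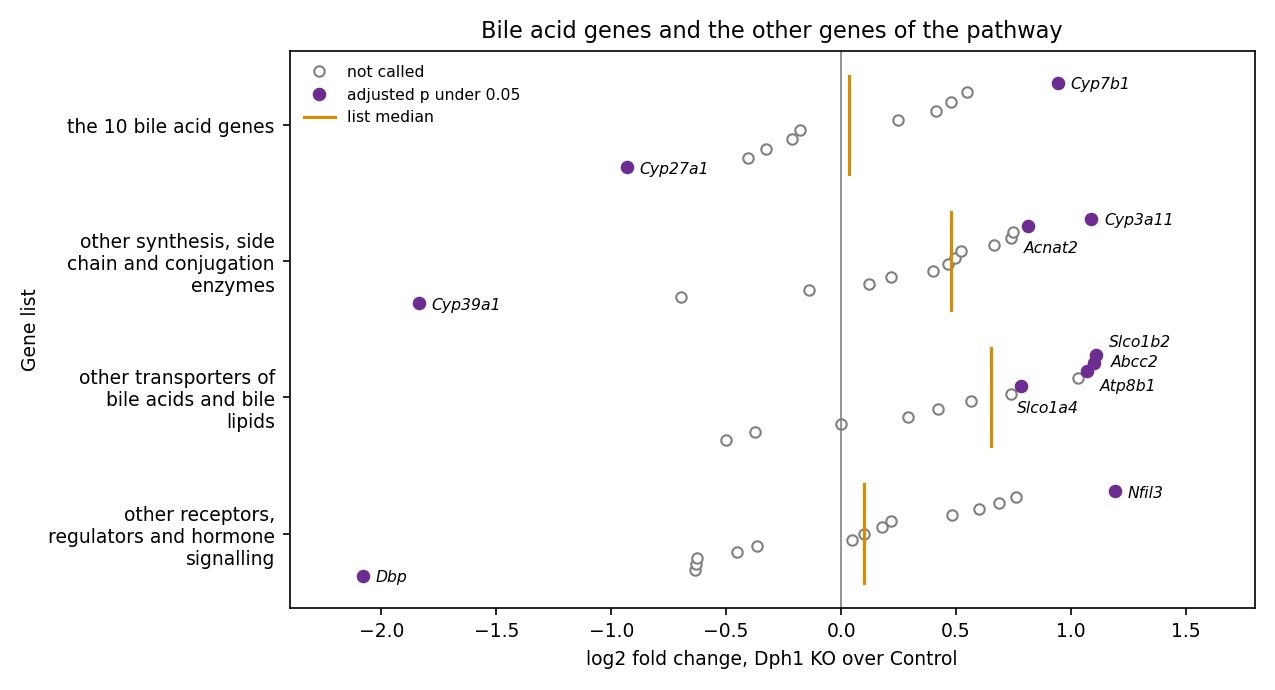
Log2 fold change (Dph1 KO over Control) of the 10 bile acid genes and of the tested genes of 3 further lists of the pathway, sorted within each list. Filled points have an adjusted p under 0.05, open points were not called, and orange bars are list medians. In the transporter list 4 genes rose, and the points furthest to the left are Cyp39a1 at -1.84 and Dbp at -2.08.

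The members lay in all 5 classes of GC content but the middle one. Cyp7a1 and Cyp7b1, with 39.7% and 42.5% GC, were in the lowest class, and Nr0b2, with 57.8%, was in the highest. Cyp27a1, at 53.5% GC, had a log2 fold change of -0.93, where the median of its class was -0.24. Cyp7b1 had one of 0.94, where the median of its class was 0.48. Baat, Slc10a1 and Nr1h4 were in the second class, with a median of 0.29, and Slc10a1 was the member of these on the other side of 0, at -0.41. The GC-corrected value of Cyp7a1, Cyp8b1, Slc27a5 and Nr0b2 had the opposite sign to the uncorrected one, and none of these 4 was called in either fit.

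**Figure D5:**
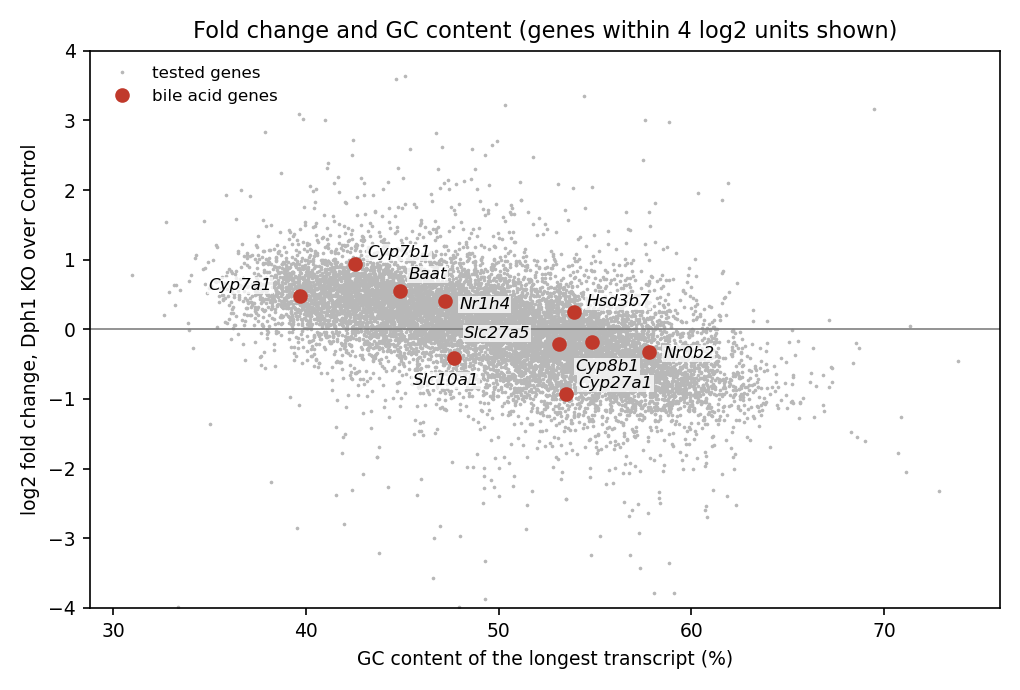
Log2 fold change (Dph1 KO over Control) against the GC content of the longest transcript, for tested genes (grey, within 4 log2 units) and the 10 bile acid genes (red). Fold changes fall with rising GC content over all genes (Spearman correlation -0.62 across genes), and Cyp7b1, at 0.94, and Cyp27a1, at -0.93, lie off the medians of their GC classes, 0.48 and -0.24.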

How the data were processed

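Liver RNA was sequenced in 4 libraries, 2 labelled Dph1 KO and 2 labelled Control. Livers were frozen, RNA was extracted with Trizol and stranded mRNA libraries were made, per the labels' protocols. The submitters' processing notes name the build GRCm38 (mm10). The aligner, the counter and the use of strand were not given in the sources used here. Per the file headers, the authors deposited whole-number read counts per gene by read class, RPKM and TPM from exon reads, and ratios that are fractions from 0 to 1, which were not used. The main values were total gene reads; of the members' reads 99.8% to 100% matched one place, and no other listed gene overlapped a member.

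Genes were kept by filterByExpr, scaled by TMM (factors 1.16 and 1.04 in Dph1 KO, 0.945 and 0.884 in Control) and tested with edgeR 4.0.16 in R 4.3.3 (glmQLFit, glmQLFTest, genotype as the only term, Benjamini-Hochberg over 13303 genes, threshold 0.05). The biological coefficient of variation was 18.5%. The SE is the fold change divided by the square root of F. GC content was that of each gene's longest transcript in GENCODE M21, known for 99.6% of tested protein-coding genes, with trends from mgcv 1.9.3 (basis size 6). DESeq2 1.42.0, limma 3.58.1 (voom, and trend on log2 TPM with a pseudocount of 1 or 0.1), other scalings, filters and read classes, and each library left out were alternatives. With a library left out, the lone library is assumed to vary as the other pair does. The test was tried first on simulated counts, with the same biological coefficient of variation for every gene and no GC trend. That trial does not show how the test does on counts with the GC trend of these data.

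The members, the lists of other pathway genes and the tests were chosen with earlier results of these data known. All 10 members are named, with up to 4 called genes of each further list with the lowest p, and the nearest genes to Cyp7a1 and Nr0b2. Promoter sequences are RefSeq's. Python 3.11.15, pandas 2.3.3, SciPy 1.17.1 and matplotlib 3.10.9 were used.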

Additional observations from a re-analysis of the deposited data

How the results depend on the processing

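With 17 alternatives, the call and direction of a member were the same in 136 of 170 values, called or not in both; 9 lost a call, 7 gained one with the same sign and 18 changed sign, 1 of which also gained a call (Nr0b2 without Control replicate 2, at 1.19). The counts below are of genes called by each fit. With no scaling beyond the library total, 3423 genes, 4 members and 22 other pathway genes were called, and 77.0% of calls were higher, against 39.4% with TMM; the median log2 fold change moved by 0.26. Limma-trend on log2(TPM + 1) called 3 genes and on log2(TPM + 0.1) 23, with 0 members and 0 other pathway genes in both. Upper quartile factors called 2040 genes, with 16 of the 41 tested other pathway genes among them. Uniquely matched exon reads called 2036 and 14, against 1640 and 9 with TMM on total gene reads. Leaving out 1 library gave 528 to 5405 genes, 1 to 4 members and 2 to 23 other pathway genes. Within a library TPM is RPKM times a constant, so the orders of the members by RPKM and by TPM could not differ.

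Signs changed only for members that were not called with all libraries. GC correction gave -0.11 for Cyp7a1, 0.22 for Cyp8b1, 0.016 for Slc27a5 and 0.30 for Nr0b2. The library total gave 0.078 for Cyp8b1 and 0.041 for Slc27a5. Limma-trend with a pseudocount of 1 and of 0.1 gave 0.27 and 0.27 for Cyp8b1, 0.17 and 0.17 for Slc27a5, and 0.30 and 0.33 for Nr0b2. Leaving out 1 library gave -0.25 to 1.91 for Cyp7a1, -0.57 to 0.35 for Cyp8b1 and -1.06 to 1.19 for Nr0b2. The cause of these changes was not tested. No paired analysis was possible because nothing ties a library of one genotype to a library of the other: the labels number no replicates, and the numbers used here only name the libraries. The lowest read numbers were 164 for Nr0b2 and 100 for Cyp7a1, both in a Control library.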

Other observations

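Cyp27a1 reads in introns and over the whole gene went in opposite directions, which was not particular to this member. Its intron reads numbered 370 and 527 in Dph1 KO, against 248 and 175 in Control. Scaled as the gene counts were, this is 15.7 and 24.1 CPM in Dph1 KO, against 13.5 and 9.73 CPM in Control, so that both Dph1 KO libraries were higher in introns while the whole gene fell. In introns Slc10a1 had 3.86 and 3.06 CPM in Dph1 KO, against 2.88 and 2.84 CPM in Control. Slc27a5 had 3.52 and 2.38 CPM in introns in Dph1 KO, against 2.34 and 1.56 CPM in Control. Over the whole gene both Slc10a1 and Slc27a5 were lower in Dph1 KO, though not called. Introns held 6.26% and 8.10% of the reads of Cyp27a1 in Dph1 KO, against 2.75% and 1.75% in Control. Over all genes the intron share was 11% and 8.26% in Dph1 KO, against 8.64% and 6.24% in Control, and the part of this difference in the Cyp27a1 share was not tested. Baat, not called, had an intron share of 14.6% and 12.2% in Dph1 KO, against 11.1% and 9.06% in Control.

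Exon junction reads of Cyp27a1, which come from spliced transcripts, numbered 2075 and 2179 in Dph1 KO, against 3294 and 3561 in Control, the direction of the whole gene.

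Pericentral hepatocyte markers, in lists chosen with earlier results known, had a positive log2 fold change in 5 of 6 and a median of 0.28. Of 6 tested, 2 were called, in opposite directions, beside 12.3% of all tested genes. Oat rose (log2 fold change 0.97, edgeR adjusted p = 0.0192) and Glul fell by 1.06 on the log2 scale (edgeR adjusted p = 0.0400). The Oat call was lost when Control replicate 1 (edgeR adjusted p = 0.131) or Control replicate 2 (edgeR adjusted p = 0.123) was left out, and the Glul call was lost without Control replicate 2, at -0.58 (edgeR adjusted p = 0.416). Of 6 periportal markers 0 were called by edgeR and 1 by DESeq2, with 1 at an unadjusted p under 0.05.

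Genes of the pathway with too few reads to test included Osta and Ostb, which encode the basolateral bile acid exporter, with 0 and 5 reads in Dph1 KO, against 2 and 11 reads in Control, and the bile acid receptor gene Gpbar1, with 2 reads in Dph1 KO, against 5 reads in Control.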
